A study of Mus musculus with 3 samples.

Results

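The photoreceptor calcium feedback genes are 8 of the 18545 genes of the count matrix, taken by name and not by their values, though with earlier results of these data known. They are Guca1a and Guca1b, Rcvrn, Gucy2e and Gucy2f, Grk1, and Slc24a1 and Slc24a2, and they are described here in rods (the authors' cluster 1) against cones (the authors' cluster 4), in the other clusters and across 3 libraries. Single-cell RNA sequencing was performed on retinas of C57BL/6J mice aged 8 weeks that had lived in darkness from birth, a condition that slows degeneration in the rd10 strain and that all groups shared. The groups were wildtype mice on base chow (WT), Rd10 mice on the same chow (rd10-vehicle) and Rd10 mice whose chow carried tamsulosin, metoprolol and bromocriptine (rd10-TMB). Rd10 mice carry a mutation in Pde6b, which encodes a subunit of the rod phosphodiesterase that breaks down cGMP. Each group is 1 library of retinas pooled from several mice, of both sexes in WT and of females in the rd10 groups, so there were no replicates, the mix of sexes differs along with genotype, and the groups could not be tested against each other. Every interval given is a 95% interval of counting error in these libraries and says nothing of the spread between mice.

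As background, photoreceptors in the dark let calcium in through channels held open by cGMP, and light closes those channels so that calcium inside the cell falls. The fall in calcium frees the activating proteins GCAP1 (Guca1a) and GCAP2 (Guca1b) to drive the membrane guanylyl cyclases (Gucy2e and Gucy2f) that remake cGMP, and it makes recoverin (Rcvrn) release the kinase Grk1 that shuts off the pigment. Calcium leaves through sodium-calcium-potassium exchangers, of which Slc24a1 encodes the one known from rods and Slc24a2 the one known from cones.

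The genes lie on 6 chromosomes of GRCm38. In the GENCODE annotation, Guca1b at chr17:47385393-47392967 on the + strand and Guca1a at chr17:47394558-47400584 on the - strand end toward each other, with 1590 bases between their 3′ ends. Rcvrn (chr11:67695326-67703333, + strand) lies inside the span of Glp2r on the opposite strand, and no annotated gene overlaps any of the other 7. Gucy2e (chr11:69218117-69237036, - strand) and Gucy2f (chrX:142081160-142196931, - strand) have up to 20 exons each in their annotated transcripts. Grk1 (chr8:13405081-13421951, + strand) has up to 7 exons, Slc24a1 (chr9:64922861-64951607, - strand) up to 10 and Slc24a2 (chr4:86983124-87230477, - strand) up to 11. Guca1a and Guca1b have 4 exons each and Rcvrn has 3.

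Upstream sequence was at hand for 6 of the 8 genes (RefSeq, GRCm38.p6), and not for Guca1b and Rcvrn. The 250 bases before the annotated start of both cyclases and of both exchangers are printed here, because in each pair 1 gene was, of the photoreceptors, found almost only in rods while the other was found in cones. Capitals mark TAATCC on either strand, the letters that OTX-type factors such as the photoreceptor factor CRX are known to bind.
Gucy2e, upstream window at chr11:69237023-69237272, - strand: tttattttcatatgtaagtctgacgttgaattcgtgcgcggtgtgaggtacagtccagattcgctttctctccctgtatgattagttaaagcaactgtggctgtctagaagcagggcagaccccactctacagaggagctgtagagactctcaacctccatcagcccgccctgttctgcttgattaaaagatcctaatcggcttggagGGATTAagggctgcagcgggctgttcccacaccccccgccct
Gucy2f, upstream window at chrX:142196937-142197186, - strand: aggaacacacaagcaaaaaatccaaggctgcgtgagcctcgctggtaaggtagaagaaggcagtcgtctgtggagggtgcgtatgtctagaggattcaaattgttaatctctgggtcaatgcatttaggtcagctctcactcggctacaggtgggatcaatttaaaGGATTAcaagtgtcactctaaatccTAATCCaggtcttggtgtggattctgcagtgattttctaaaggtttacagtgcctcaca
Slc24a1, upstream window at chr9:64951621-64951870, - strand: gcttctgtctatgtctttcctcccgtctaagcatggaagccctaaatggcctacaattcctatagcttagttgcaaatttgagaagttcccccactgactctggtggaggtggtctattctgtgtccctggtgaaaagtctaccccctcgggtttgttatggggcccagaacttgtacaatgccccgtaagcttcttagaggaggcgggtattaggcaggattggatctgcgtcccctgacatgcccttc
Slc24a2, upstream window at chr4:87230541-87230790, - strand: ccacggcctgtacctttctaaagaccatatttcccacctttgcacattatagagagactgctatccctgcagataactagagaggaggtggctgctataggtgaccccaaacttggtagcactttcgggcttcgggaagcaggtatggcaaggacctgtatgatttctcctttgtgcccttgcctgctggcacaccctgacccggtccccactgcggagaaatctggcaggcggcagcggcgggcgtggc
TAATCC or its reverse was found 1 time in the Gucy2e window, beginning 42 bases before the start, and 2 times in the Gucy2f window, beginning 84 and 59 bases before the start. The window of Guca1a held 1 match, beginning 57 bases before the start, and those of Grk1, Slc24a1 and Slc24a2 held none, including a second Slc24a2 start at chr4:87227964-87228213. Of all 32851 upstream windows of this length, 6.25% held TAATCC on either strand. The letters TGCTGA, which MAF-type factors such as the rod factor NRL are known to bind, were found on neither strand in any of the 7 windows of these 6 genes, against 16.1% of all windows. A match is a run of letters and not a bound site, and its absence says only that these letters are not in the window.

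In the order WT, rd10-vehicle and rd10-TMB, rods numbered 1180, 556 and 746 cells and cones 278, 542 and 412. The median rod held 1423, 1406 and 1536 unique molecular identifiers (UMIs, each marking 1 captured RNA molecule), and the median cone 5333, 4857 and 5548.5. All 12 rod markers were at least 2-fold higher in cluster 1 than in the other cells, and all 10 cone markers in cluster 4, so the names hold by markers. The clusters were built on the most variable genes of the same cells, and it was not determined whether these genes were among them, so every rod and cone value is a description and not a test. Counts were summed over the cells of a cluster and library and scaled to CPM, the UMIs of a gene per 1000000 UMIs of the sum. The libraries count 3′ tags without scaling for gene length, so levels are compared within a gene. The shares of UMIs between paralogues given below compare captured tags and are no measure of RNA levels between genes. Müller glia transcripts moved with genotype, with a summed level of 7 glial markers in rods of 239, 716 and 599.8 CPM for WT, rd10-vehicle and rd10-TMB, and in cones of 321, 739 and 685 CPM. The 10 cone markers also summed to more in rd10 rods, at 1075 CPM (rd10-vehicle) and 643 CPM (rd10-TMB) against 398 CPM (WT). All markers of both lists had UMIs in both classes of every library, and their part in the values below was not tested.

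RNA set free from rods reaches other droplets, and Gnat1, which encodes the rod transducin, was taken as its measure. Gnat1 stood at 4375 CPM (WT), 4521 CPM (rd10-vehicle) and 4328 CPM (rd10-TMB) in rods, and at 106, 68.6 and 83.3 CPM in cones, from 151, 176 and 181 UMIs. If all copies of a gene in cones came from free rod RNA, its UMIs per Gnat1 UMI would be the same there as in rods, which gives a ratio of 1, provided that cones make no Gnat1 themselves. This ratio to free rod RNA is printed below for each gene that was low in cones.

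The GCAP genes were split between the photoreceptors, with Guca1a in both and Guca1b almost only in rods. Guca1a was present at 3519 CPM (WT), 3857 CPM (rd10-vehicle) and 4259 CPM (rd10-TMB) in rods, and at 6464 CPM (WT), 5507 CPM (rd10-vehicle) and 5998 CPM (rd10-TMB) in cones. Cones held more of it in all 3 libraries, by 1.84-fold for WT (95% interval 1.78 to 1.90), by 1.43-fold for rd10-vehicle (1.37 to 1.48) and by 1.41-fold for rd10-TMB (1.36 to 1.45). The excess in cones was larger in WT than in both rd10 libraries, but among cells with at least 1000 genes the log2 ratios were 0.72 (WT), 0.60 (rd10-vehicle) and 0.45 (rd10-TMB), which lie closer together. Guca1b was present at 1913 CPM (WT), 1747 CPM (rd10-vehicle) and 1717 CPM (rd10-TMB) in rods, and at 132 CPM (WT), 35.1 CPM (rd10-vehicle) and 32.2 CPM (rd10-TMB) in cones, from 188, 90 and 70 UMIs. Rods of WT held 14.4-fold more than cones (12.5 to 16.9), those of rd10-vehicle 49.3-fold (40.2 to 62.3) and those of rd10-TMB 52.6-fold (42.0 to 68.6). Of the UMIs of both GCAP genes, Guca1a took 64.8% in WT rods, 68.8% in rd10-vehicle rods and 71.3% in rd10-TMB rods, and 98.0%, 99.4% and 99.5% in the cones of the same libraries.

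Guca1b lay above the free rod level in WT cones and near it in rd10 cones. Its ratio to free rod RNA was 2.85 for WT cones (2.29 to 3.54), 1.32 for rd10-vehicle cones (1.02 to 1.72) and 0.975 for rd10-TMB cones (0.737 to 1.29), where the lower end of the rd10-vehicle interval lay just above 1 and the rd10-TMB interval held 1. In all cells outside both photoreceptor clusters the same ratio was 0.698, 0.814 and 0.805. In WT cones the transcript was spread over 115 of 278 cells, the 5 cells with most of it holding 11.7% of its UMIs. In rd10-vehicle cones 61 of 542 cells had a UMI and the top 5 cells held 28.9%, and in rd10-TMB cones 58 of 412 cells had a UMI and the top 5 held 22.9%. After subtraction of the level outside photoreceptors, the log2 ratio of Guca1b in cones over rods was -4.27, -8.59 and -11.83 for WT, rd10-vehicle and rd10-TMB. The last 2 of these rest on almost no remaining UMIs.

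Gucy2e encodes the cyclase found in both photoreceptors, and Gucy2f its relative. Gucy2e was present at 309 CPM (WT), 259 CPM (rd10-vehicle) and 274 CPM (rd10-TMB) in rods, and at 244 CPM (WT), 196 CPM (rd10-vehicle) and 177 CPM (rd10-TMB) in cones. Its log2 ratio of cones over rods was -0.34 (-0.54 to -0.15), -0.41 (-0.63 to -0.17) and -0.63 (-0.84 to -0.41), within 2-fold in each library. With every cell thinned to 1000 UMIs the WT ratio turned to 0.15, so no order between WT rods and cones is read for it. Gucy2f was present at 135 CPM (WT), 108 CPM (rd10-vehicle) and 90.2 CPM (rd10-TMB) in rods, and at 9.12 CPM (WT), 2.73 CPM (rd10-vehicle) and 3.68 CPM (rd10-TMB) in cones, from 13, 7 and 8 UMIs. Rods of WT held 13.8-fold more than cones (8.50 to 28.2), those of rd10-vehicle 35.0-fold (18.5 to 101) and those of rd10-TMB 22.0-fold (12.02 to 58.1). The intervals of those 3 values overlap. In cones the ratio of Gucy2f to free rod RNA was 2.79 (1.56 to 4.98), 1.66 (0.761 to 3.64) and 2.12 (1.02 to 4.41), beside the 2.44, 2.78 and 3.09 of the cells outside both clusters. Subtraction of the level outside photoreceptors moved its log2 ratios of cones over rods from -3.79, -5.13 and -4.46 to -6.80, -8.04 and -7.50, again from almost no remaining UMIs. With every cell thinned to 1000 UMIs the Gucy2f ratios were -3.13, -3.75 and -4.23, that of rd10-vehicle outside its interval. Gucy2e took 69.6%, 70.6% and 75.2% of the UMIs of both cyclases in rods and 96.4%, 98.6% and 98.0% in cones, in the order WT, rd10-vehicle and rd10-TMB.

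Recoverin and its kinase were shared by rods and cones. Rcvrn was present at 3441 CPM (WT), 4113 CPM (rd10-vehicle) and 4036 CPM (rd10-TMB) in rods, and at 2760.1 CPM (WT), 2349.6 CPM (rd10-vehicle) and 2229 CPM (rd10-TMB) in cones. Rods of WT held 1.25-fold more than cones (1.20 to 1.30), those of rd10-vehicle 1.75-fold (1.68 to 1.82) and those of rd10-TMB 1.81-fold (1.74 to 1.88), a gap that was wider in both rd10 libraries. Among cells with at least 1000 genes the log2 ratios of Rcvrn in cones over rods were -0.64, -0.93 and -1.002, the last of them past 2-fold. Grk1 was present at 750.2 CPM (WT), 647 CPM (rd10-vehicle) and 602 CPM (rd10-TMB) in rods, and at 479 CPM (WT), 377 CPM (rd10-vehicle) and 346 CPM (rd10-TMB) in cones. Rods of WT held 1.57-fold more than cones (1.43 to 1.72), those of rd10-vehicle 1.72-fold (1.54 to 1.91) and those of rd10-TMB 1.74-fold (1.57 to 1.93), and these intervals overlap. Guca1a, Rcvrn, Gucy2e and Grk1 in cones lay 26.3 to 94.1 times above free rod RNA over the 3 libraries.

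The exchangers were opposite. Slc24a1 was present at 1383 CPM (WT), 1261 CPM (rd10-vehicle) and 1217 CPM (rd10-TMB) in rods, and at 39.3 CPM (WT), 23.0 CPM (rd10-vehicle) and 21.2 CPM (rd10-TMB) in cones, from 56, 59 and 46 UMIs. Rods of WT held 34.6-fold more than cones (27.0 to 46.7), those of rd10-vehicle 53.9-fold (42.2 to 72.5) and those of rd10-TMB 56.3-fold (42.9 to 78.9). The rd10-TMB log2 ratio of cones over rods, -5.82, became -4.94 with every cell thinned to 1000 UMIs. Among cells with at most 10% mitochondrial UMIs it became -6.53, and both values lie outside its interval. The ratio of Slc24a1 in cones to free rod RNA was 1.17 (0.861 to 1.60), 1.20 (0.888 to 1.63) and 0.904 (0.651 to 1.26), so no Slc24a1 of the cones' own was detectable at this depth. With the level outside photoreceptors subtracted, the log2 ratios of cones over rods went from -5.11, -5.75 and -5.82 to -9.69, -11.63 and -11.33, which rest on almost no remaining cone UMIs. Slc24a2 was present at 281 CPM (WT), 253 CPM (rd10-vehicle) and 234 CPM (rd10-TMB) in cones, and at 5.01 CPM (WT), 9.29 CPM (rd10-vehicle) and 3.17 CPM (rd10-TMB) in rods, from 9, 8 and 4 UMIs. Cones of WT held 50.6-fold more than rods (29.2 to 124), those of rd10-vehicle 24.3-fold (13.8 to 63.4) and those of rd10-TMB 59.2-fold (28.7 to 272), with wide intervals set by the few rod UMIs. The same subtraction, which for this gene also removes what other neurons hold, gave log2 ratios of 8.71, 7.70 and 8.12. Slc24a1 took 99.6%, 99.3% and 99.7% of the UMIs of both exchangers in rods, and 12.3%, 8.32% and 8.30% in cones.

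**Figure D1:**
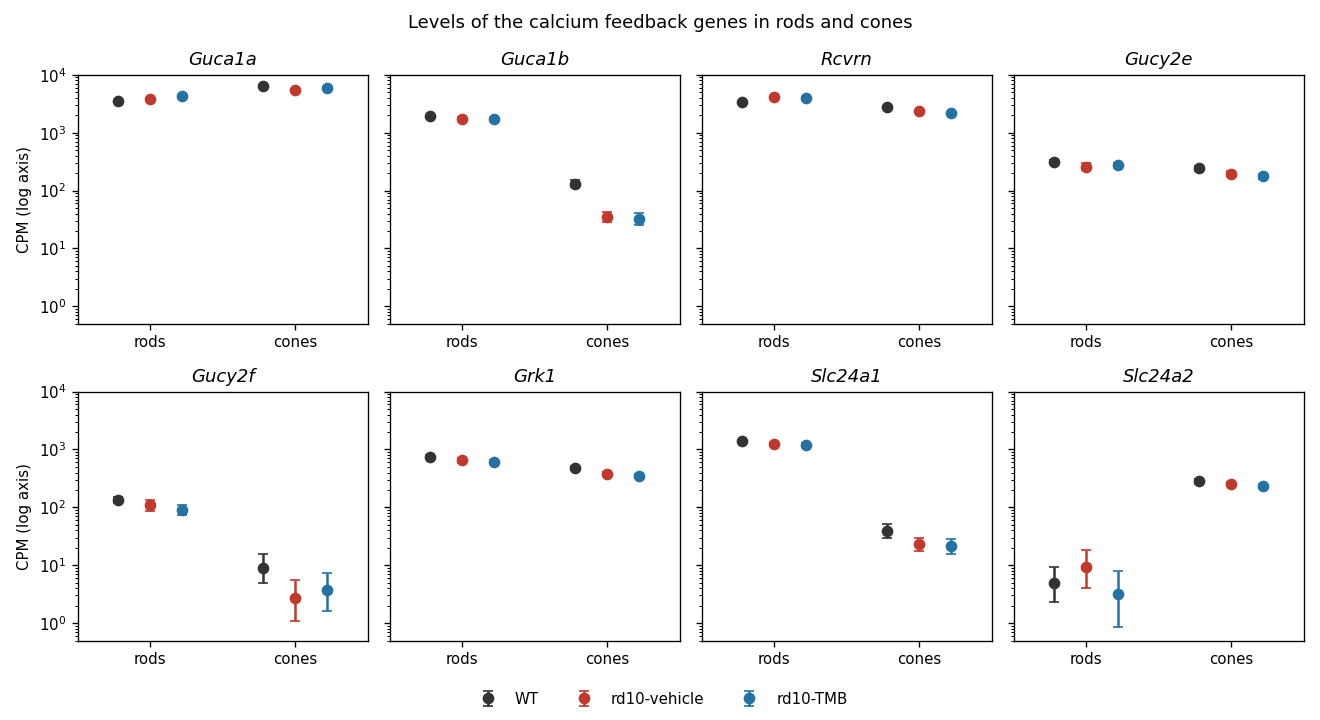
CPM on a log axis in rods and cones for each gene, with 1 point per library and exact Poisson 95% intervals (hidden where narrower than the point). Guca1b, Gucy2f and Slc24a1 drop from rods to cones and Slc24a2 does the opposite, while the other 4 genes stay within 2-fold.

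With a limit of 2-fold and at least 50 UMIs over both sums, the same 1 gene of 8 (Slc24a2) was higher in cones and the same 3 of 8 (Guca1b, Gucy2f and Slc24a1) were higher in rods in all 3 libraries. In WT, 7.69% of all genes compared passed the limit toward cones and 9.66% toward rods. In rd10-vehicle those shares were 9.1% and 8.4%, and in rd10-TMB 8.9% and 8.77%. The members just inside the limit were Guca1a toward cones in WT, at 0.88 on the log2 scale, and Rcvrn toward rods in rd10-TMB, at -0.86. The median log2 ratio of the 8 genes was -0.50, -0.79 and -0.83 in WT, rd10-vehicle and rd10-TMB, against -0.09, -0.06 and -0.06 over all genes compared.

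**Figure D2:**
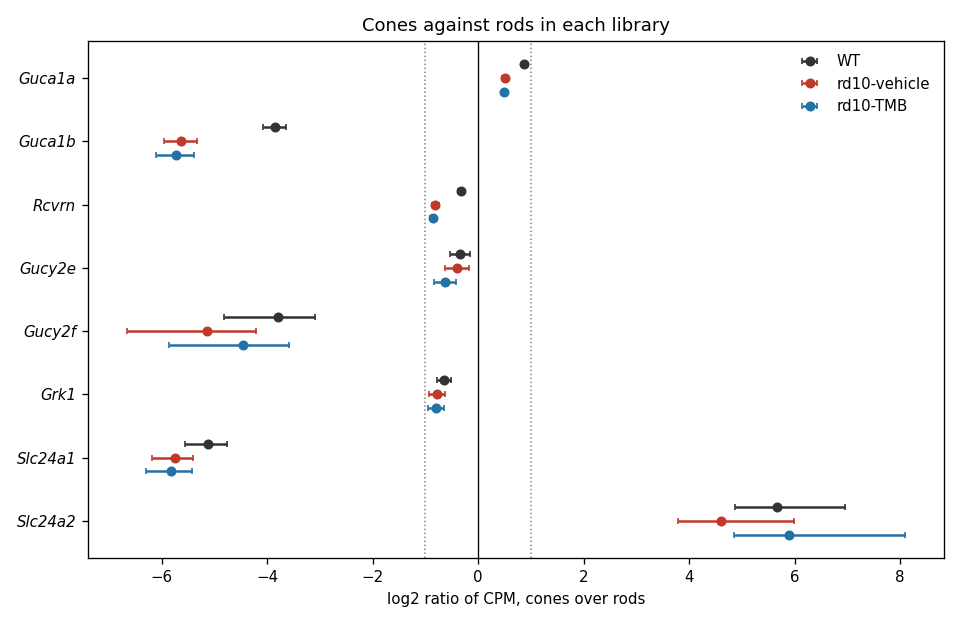
Log2 ratio of CPM in cones over rods (x axis) for each gene (y axis), with 1 point per library and 95% counting intervals; dotted lines mark 2-fold. The points of Guca1b in both rd10 libraries lie left of the WT point at -3.85, with intervals that do not reach it.

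The share of cells with a UMI, with each cell thinned to 1000 UMIs and shallower cells left out (226, 68 and 80 rods, and 5, 11 and 15 cones), gives another readout of the same genes. Guca1a was found in 94.5% (WT), 95.9% (rd10-vehicle) and 97.3% (rd10-TMB) of rods, and in 99.6% (WT), 94.9% (rd10-vehicle) and 98.0% (rd10-TMB) of cones. Slc24a1 was found in 69.3% (WT), 64.8% (rd10-vehicle) and 64.6% (rd10-TMB) of rods, and in 4.03% (WT), 2.45% (rd10-vehicle) and 2.52% (rd10-TMB) of cones, the latter as few as in Müller-glia-like cluster 0, which should lack the gene (3.04%, 2.38% and 2.72%). Slc24a2 was found in 22.7% (WT), 20.7% (rd10-vehicle) and 19.6% (rd10-TMB) of cones, and in 0.524% (WT), 1.02% (rd10-vehicle) and 0.150% (rd10-TMB) of rods, where cluster 0 had 0.380%, 0.363% and 0.347%. These rod shares rest on few cells, and no expression of Slc24a2 by rods is read from them. Guca1b was found in 83.4% (WT), 80.9% (rd10-vehicle) and 80.3% (rd10-TMB) of rods, and in 8.79% (WT), 2.82% (rd10-vehicle) and 4.28% (rd10-TMB) of cones. Cluster 0 had 3.61%, 2.91% and 3.36% for Guca1b, and cluster 3 had 8.26% in WT, so the share in WT cones did not differ from that of cluster 3 beyond counting error. Without thinning, in the order WT, rd10-vehicle and rd10-TMB, Guca1a was found in 92.3%, 96.2% and 97.3% of rods and 99.6%, 98.0% and 97.3% of cones. Slc24a1 was then found in 77.3%, 75.2% and 74.3% of rods and 15.5%, 8.86% and 8.50% of cones, and Slc24a2 in 0.678%, 1.44% and 0.536% of rods and 67.6%, 63.3% and 61.2% of cones. Unthinned Guca1b was found in 86.7%, 86.9% and 86.6% of rods, 41.4%, 11.3% and 14.1% of cones and 16.2%, 18.2% and 21.7% of cluster 0. Before thinning, the median UMIs per cell of cluster 0 were 6300, 8593.5 and 9454.5.

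**Figure D3:**
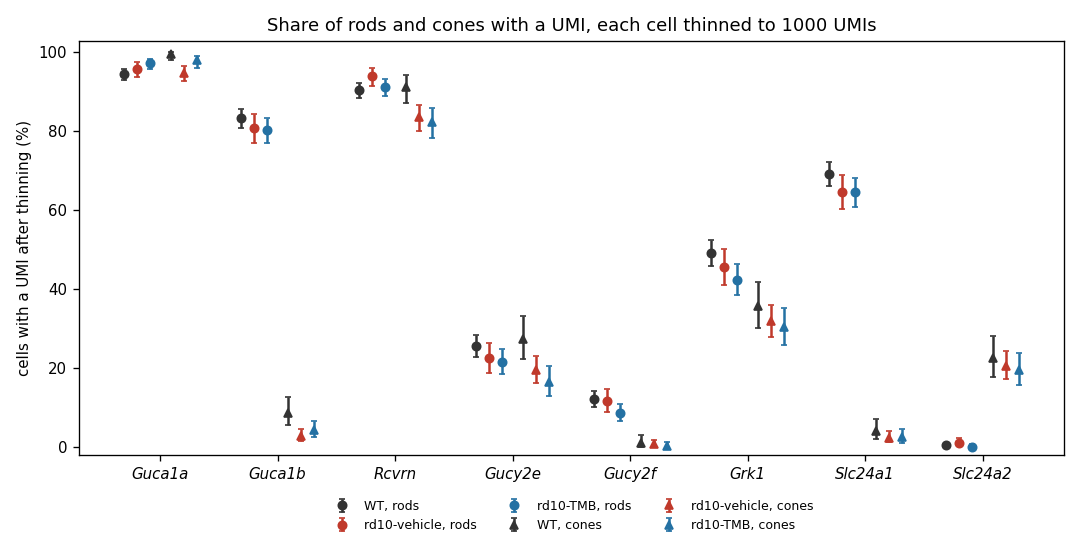
Percent of rods (circles) and cones (triangles) with at least 1 UMI of each gene after thinning to 1000 UMIs per cell, with exact binomial 95% intervals. Rods and cones part at Guca1b, Gucy2f, Slc24a1 and Slc24a2 by the widest relative gaps. At Grk1 the cones of every library, and at Rcvrn those of both rd10 libraries, lie below the rods with intervals that do not overlap.

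Outside photoreceptors, Guca1a, Guca1b, Rcvrn and Grk1 were low in most clusters. Over the 8 other clusters with at least 50 cells in each library, the median ratio of Guca1a to free rod RNA was 0.677, 1.11 and 0.787 by library (WT, rd10-vehicle, rd10-TMB), and that of Guca1b 0.681, 0.854 and 0.686. Rcvrn had medians of 0.470, 0.718 and 0.536, and Grk1 of 1.27, 2.16 and 1.87. The ratio of Slc24a1 in the same clusters had medians of 0.943, 1.39 and 1.03. Among these 8 clusters the highest ratios of Grk1 and Slc24a1 were in cluster 8, OFF cone bipolar-like, in rd10-vehicle. Grk1 stood there at 6.29 (3.31 to 11.96) and Slc24a1 at 6.81 (3.95 to 11.8) times the free rod level. In that library Rcvrn (1.37), Gucy2e (34.0) and Gucy2f (14.6) also had their highest ratios in cluster 8, and Guca1a, Guca1b and Slc24a2 in other clusters. Grk1 was above the free rod level elsewhere too, as in cluster 3 of rd10-vehicle at 3.07 (2.10 to 4.50). Cluster 8 held Grk1 at 36.3 CPM (WT), 32.9 CPM (rd10-vehicle) and 19.0 CPM (rd10-TMB), with 99, 20 and 61 UMIs of Gnat1. Slc24a1 had 57.7 CPM (WT), 69.5 CPM (rd10-vehicle) and 42.7 CPM (rd10-TMB) there, and its ratio was 1.12 in WT and 1.57 in rd10-TMB.

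Gucy2e was also found in bipolar clusters. In cluster 3, ON cone bipolar-like by its markers, it stood at 104 CPM (WT), 76.3 CPM (rd10-vehicle) and 100.4 CPM (rd10-TMB), which is 6.69, 20.9 and 11.8 times its free rod level. In cluster 7, led by Otor and Slitrk6 among other genes, it stood at 113 CPM (WT), 166 CPM (rd10-vehicle) and 179 CPM (rd10-TMB), and in cluster 8, OFF cone bipolar-like, at 65.9 CPM (WT), 71.3 CPM (rd10-vehicle) and 57.0 CPM (rd10-TMB). In the rod bipolar-like cluster 2 it was 2.36, 6.01 and 3.73 times its free rod level. The median over the 8 other clusters with at least 50 cells in each library was 2.47, 6.41 and 5.76, so cluster 2 did not stand out. Cluster 7 also had the highest Gucy2f outside rods among these 8 clusters in each library, at 27.8 CPM (WT), 24.6 CPM (rd10-vehicle) and 26.7 CPM (rd10-TMB), from 14, 11 and 10 UMIs.

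Slc24a2 was also found outside photoreceptors. Cluster 3 held 115 CPM (WT), 131 CPM (rd10-vehicle) and 122 CPM (rd10-TMB), and cluster 7 held 89.4 CPM (WT), 105 CPM (rd10-vehicle) and 117 CPM (rd10-TMB). Cluster 10, which is left unnamed, held 201 CPM (WT), 38.7 CPM (rd10-vehicle) and 83.9 CPM (rd10-TMB), a spread wider than in the bipolar clusters. In the horizontal-like cluster 19 it reached 299.9 CPM from 109 UMIs in 18 WT cells, 213 CPM from 16 UMIs in 6 rd10-TMB cells, and had 0 UMIs in the 4 cells of rd10-vehicle, which allows up to 3 UMIs. The ganglion-like cluster 16 held 77.8 CPM from 37 WT cells, and too few cells in the rd10 libraries to compare. The level in WT cones (281 CPM, 254 to 309.6) did not differ from that in WT horizontal-like cells (246 to 362 CPM) beyond counting error.

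Slc24a1, the exchanger of rods, was also found in cluster 15, pigment-epithelium-like and led by Rpe65 and Ttr. There it stood at 1078 CPM in 13 WT cells (805 to 1414, 52 UMIs), 372 CPM in 35 rd10-vehicle cells (278 to 488, 52 UMIs) and 663 CPM in 16 rd10-TMB cells (440.3 to 958, 28 UMIs). Those levels are 20.6, 46.6 and 16.6 times the free rod level, a ratio that rests on 8, 4 and 6 UMIs of Gnat1, and in WT close to the 1383 CPM of rods. The cell numbers are small, and the intervals of WT and rd10-vehicle do not overlap.

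**Figure D4:**
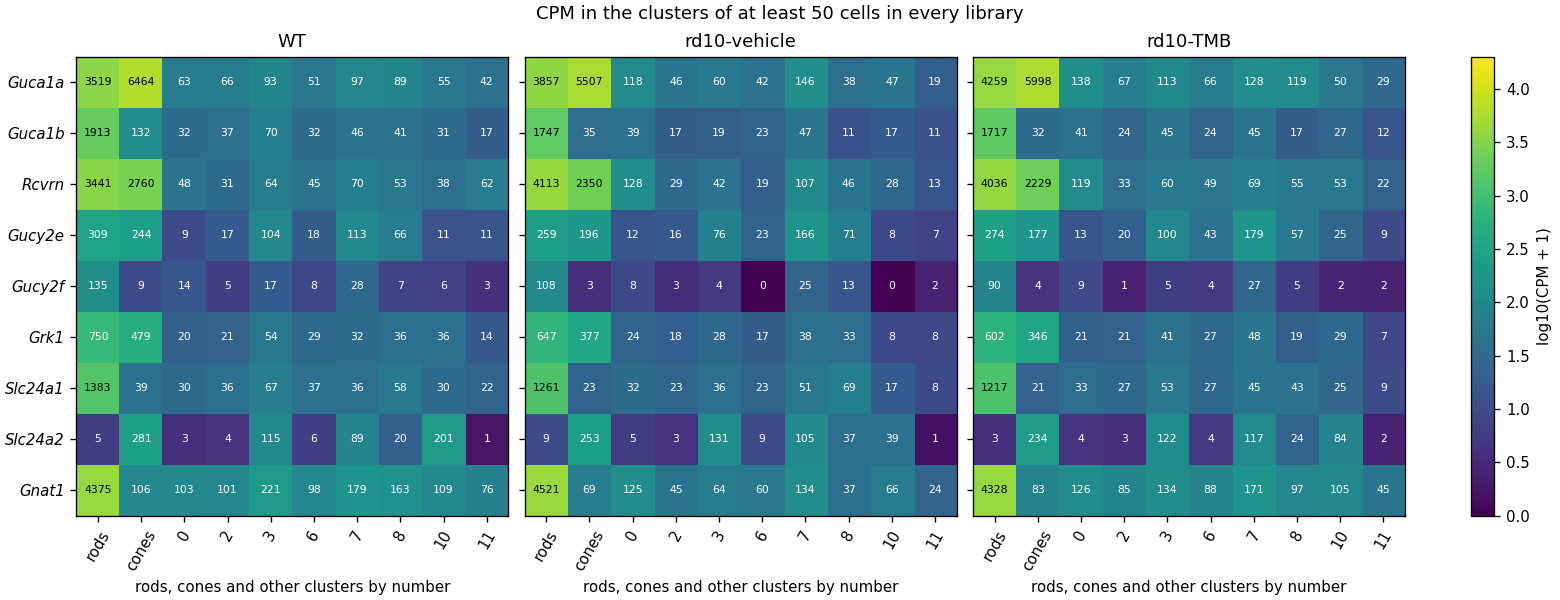
CPM (numbers, and colour as log10 of the value plus 1) of the 8 genes and Gnat1 in rods, cones and the 8 other clusters with at least 50 cells in each library. Outside both photoreceptors the highest values of Gucy2e are in clusters 3 and 7 and those of Slc24a2 in clusters 3, 7 and 10.

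Between libraries, the rod levels moved little. With a limit of 1.5-fold, 0 of 7 members with at least 50 UMIs passed it in rods for rd10-vehicle over WT, where 14.2% of all genes compared did. For rd10-TMB over WT the count was 0 of 7 against 11.7%, and for rd10-TMB over rd10-vehicle 0 of 7 against 6.92%. These counts of 0 come from a limit of size, and no test stands behind them. Slc24a2 had too few rod UMIs to be counted. The largest log2 ratio was that of Gucy2f for rd10-TMB over WT, -0.58 (-0.92 to -0.26), just inside the limit, and past it at -0.59 among cells with at most 10% mitochondrial UMIs and at -0.60 with free RNA subtracted. Gucy2e had ratios over WT of -0.25 (-0.49 to -0.03) and -0.17 (-0.37 to 0.02). Guca1b, Grk1 and Slc24a1 were slightly lower in both rd10 libraries, with log2 ratios over WT of -0.13 and -0.16 for Guca1b, -0.21 and -0.32 for Grk1, and -0.13 and -0.18 for Slc24a1. Guca1a and Rcvrn were slightly higher, with log2 ratios of 0.13 and 0.28 for Guca1a and of 0.26 and 0.23 for Rcvrn. The summed cone markers, given above, were also higher in the rods of both rd10 libraries, and their part was not tested. Among rods with at least 1000 genes detected, the ratio of Guca1a in rd10-vehicle over WT was -0.12 in place of 0.13, and those of Rcvrn were 0.05 and 0.06, below their main intervals.

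In cones, 2 of 7 members were lower in rd10-vehicle than in WT past 1.5-fold, against 8.81% of all genes in either direction, and the same 2 of 7 were lower in rd10-TMB than in WT, against 8.16%. They were Guca1b, with log2 ratios of -1.90 (-2.29 to -1.54) and -2.02 (-2.45 to -1.63), and Slc24a1, with -0.77 (-1.33 to -0.22) and -0.89 (-1.49 to -0.30). Both comparisons share the WT library. Gnat1 was also lower in rd10 cones, and Slc24a1 in cones was at the free rod level in each library. When WT was held to cells with an Xist UMI but none of a Y-linked gene, the ratios of Slc24a1 were -0.31 and -0.42, inside the limit, and those of Guca1b -1.87 and -1.99. With every cell thinned to 1000 UMIs the ratios of Guca1b were -1.71 and -1.05, those of Slc24a1 -0.85 and -0.33, and those of Gucy2e -0.57 and -0.81. With free RNA subtracted those of Guca1b were -4.44 and -7.73 and those of Slc24a1 -2.06 and -1.82. Almost no UMIs then remained of Slc24a1 in cones of any library or of Guca1b in rd10 cones, so the size of these ratios is not read. Among cells with at most 10% mitochondrial UMIs, Slc24a1 had -0.71 and -1.57. Gucy2e had -0.22 and -0.17 there, the value of rd10-TMB lying nearer 0 than its main interval. For rd10-TMB over rd10-vehicle 0 of 7 members passed the limit in cones, against 4.36% of all genes. Even so, the Guca1b ratio of -0.12 turned to 0.67 with thinning and to -3.28 with free RNA subtracted, which left almost no UMIs. That of Slc24a1, -0.11, turned to 0.52 with thinning and to -0.86, past the limit, among cells with at most 10% mitochondrial UMIs. All 7 members compared had a ratio under 0 in cones for both rd10 libraries over WT, from -2.02 to -0.11, with medians of -0.31 in rd10-vehicle and -0.46 in rd10-TMB, against -0.05 and -0.04 over all genes compared, of which 57.8% and 54.8% were under 0 too. Of the members shared by both photoreceptors, Grk1 had log2 ratios in cones of -0.34 (-0.49 to -0.20) and -0.47 (-0.62 to -0.32). The second of them was -0.59 with the Xist limit on WT and -0.22, outside its interval, with thinning. Gucy2e had ratios of -0.31 (-0.51 to -0.11) and -0.46 (-0.67 to -0.25). Slc24a2 had -0.15 (-0.33 to 0.04) and -0.26 (-0.46 to -0.07), the first of them within counting error of 0.

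Guca1a and Rcvrn moved apart between rods and cones. In cones, Guca1a had log2 ratios over WT of -0.23 (-0.27 to -0.19) in rd10-vehicle and -0.11 (-0.15 to -0.07) in rd10-TMB, and Rcvrn of -0.23 (-0.29 to -0.17) and -0.31 (-0.37 to -0.25), all under 0 where the rod ratios were above 0. Between both rd10 libraries the cone ratios were small, with rd10-TMB over rd10-vehicle at 0.12 (0.09 to 0.16) for Guca1a and -0.08 (-0.13 to -0.02) for Rcvrn. Guca1a was thus higher with TMB in rods (0.14) and cones, by less than 1.2-fold in each.

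**Figure D5:**
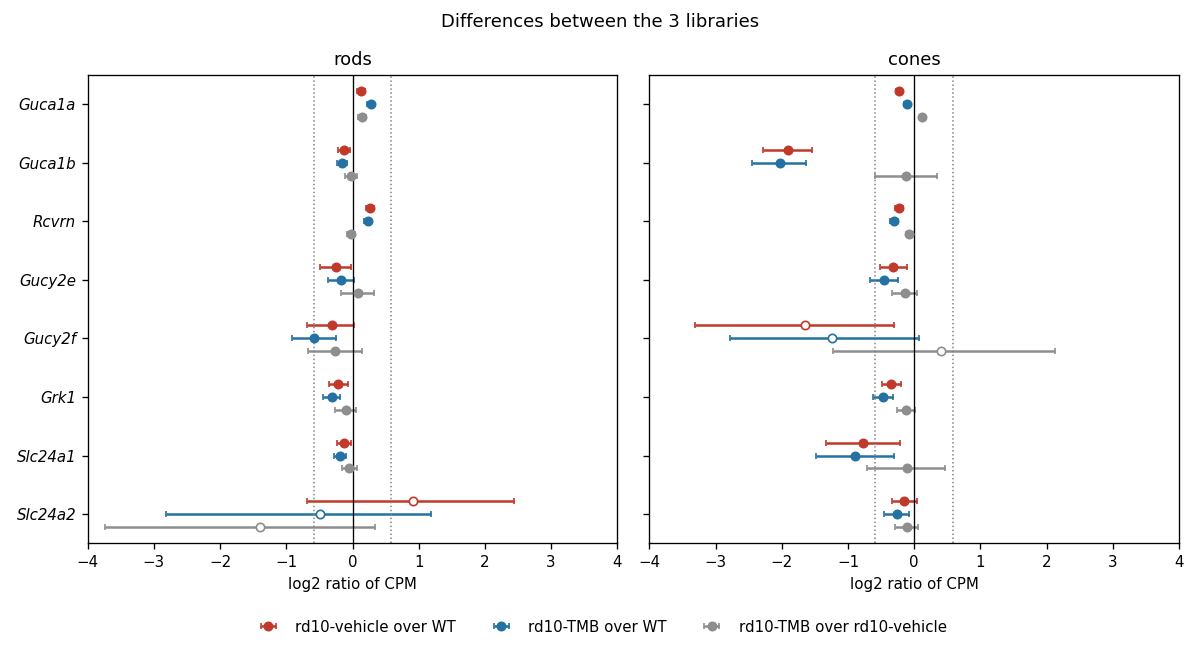
Log2 ratios of CPM between libraries in rods (left) and cones (right), with 95% counting intervals; dotted lines mark 1.5-fold and open circles stand for fewer than 50 UMIs over both sums. Guca1b in cones is the member farthest from 0 in both rd10 libraries over WT, and no filled point of rd10-TMB over rd10-vehicle lies past the dotted lines.

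Other genes that carry calcium and cGMP through the light response gave a setting for the members. Of 23 such genes on a list, 19 had at least 50 UMIs in rods and cones together in each library, of which 5, 4 and 4 were at least 2-fold higher in cones and 3, 2 and 4 at least 2-fold higher in rods, in the order WT, rd10-vehicle and rd10-TMB. Over all genes compared, 7.69%, 9.1% and 8.9% were higher in cones and 9.66%, 8.4% and 8.77% in rods by that limit. Those higher in cones in each library were Cnga3 and Cngb3, the subunits of the cone channel, Arr3, the cone arrestin, and Slc24a4, another exchanger of the Slc24 family. Those higher in rods in each library were Cnga1 and Cngb1, the subunits of the rod channel. Both channels' genes and Arr3 are also among the markers that named the clusters. Slc24a4 stood at 67.4, 77.2 and 71.8 CPM in cones, from 96, 198 and 156 UMIs, and had 5, 0 and 3 UMIs in rods, where a count of 0 allows up to 3 UMIs. Cnga1 stood at 2178, 1916 and 2033 CPM in rods and at 26.7, 23.0 and 27.2 CPM in cones. Rd3, whose protein carries the cyclases and holds them inactive, was within 2-fold in each library, at 189, 223 and 220.0 CPM in rods and 247, 277 and 247 CPM in cones.

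Over WT, 2 of the 16 list genes compared in rods were past 1.5-fold in rd10-vehicle, both lower, and 0 of 16 in rd10-TMB, where 14.2% and 11.7% of all genes compared were past it, so the first count is near that share. Those 2 were Cacna1f, a subunit of the calcium channel of the photoreceptor synapse, with 137 CPM in WT and 86.0 in rd10-vehicle, and Rgs9bp, the anchor of the protein complex that ends transducin signalling, with 506 and 319.5 CPM. In cones 1 of 19 was past the limit in each rd10 library, Cnga3 in rd10-vehicle (112 CPM in WT and 71.3 in rd10-vehicle) and Rgs9bp in rd10-TMB (279 and 177 CPM), where 8.81% and 8.16% of all genes were. For rd10-TMB over rd10-vehicle the count was 0 of 16 in rods and 0 of 19 in cones, against 6.92% and 4.36%. Of 10 other neuronal calcium sensors only 1 had enough UMIs in these comparisons, and it passed no limit in any of them. Of 5 other receptor kinases at most 2 could be compared, and of 5 other membrane guanylyl cyclases (3 of them in the matrix) none.

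Across 30 profiles, 10 clusters in each of 3 libraries, the genes most like each member were found by Pearson's r of log2(CPM + 1). Guca1a was most like Rtbdn (0.98), Sag and Rgs9, and Rcvrn most like Sag (0.98), Pdc and Casz1. Grk1 was most like Rtbdn (0.97), Sag and Pdc. Gucy2e, though within 2-fold between rods and cones, was most like the rod marker Gngt1 (0.93), then Cerk and Rbp3. Guca1b was most like Gnat1 (0.97), with Pde6b (0.96) also near it, Slc24a1 had Cnga1 and Gnat1 (0.95 each) among its nearest genes, and Gucy2f was most like D1Ertd622e (0.92), with Samd11 (0.86) also near it. Slc24a2 was most like Gnat2 (0.89), Pgc and Gabrr3. Among the members themselves, Guca1a and Rcvrn had r = 0.98, Guca1b and Slc24a1 0.93, and Slc24a1 and Slc24a2 -0.05. These values share libraries and depth between points and are a description.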

How the data were processed

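Retinas were dissociated with papain, and 1 droplet library with 3′ tags was sequenced per group. The labels state 4 pooled mice for each library, but the study's methods state fewer in the rd10 groups. The authors aligned reads to mm10 with Cell Ranger 6.0.1, removed doublets with Scrublet, kept cells with at least 500 genes in Seurat 3.2.2 and clustered them after Harmony. Values of the deposited matrix are on a natural log scale, the log of 1 plus the UMIs per 10000 UMIs of that cell, and the deposited cell table holds counts (UMIs and genes per cell), library and cluster. The values were turned back into UMI counts, and 100% came out whole within 0.001 UMI, and their sums equalled the deposited totals for 15242 of 15242 cells. Every deposited cell was used, and 25 barcodes occurred in more than 1 library. The WT library held 4478 cells and 18882951 UMIs, rd10-vehicle 5952 and 37002532, and rd10-TMB 4812 and 29192530.

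UMIs were summed per cluster and library and scaled to CPM. Log2 ratios carry a pseudocount of 1 UMI per sum. Intervals at 95% (exact Poisson for levels, Clopper-Pearson for shares, conditional binomial for ratios) cover counting error and nothing else. Cells are not replicates, so no p-value was computed. Members, gene lists and markers were chosen with earlier results of these data known. Genes named are the members, list genes past a limit or with a described role, and genes among the 3 most similar profiles per member, from genes with at least 200 UMIs. Gnat1 as the measure of free rod RNA was chosen after the data were seen, in place of a gene that is not reported here. The function for ratios was tested on simulated counts. The authors' own MAST tests over cells were not used. Positions are from GENCODE M21. Python 3.11.15, NumPy 2.4.6 and SciPy 1.17.1 were used.

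Alternatives changed the scaling (size factors by median of ratios, or sums leaving out abundant genes, among them the mitochondrial and ribosomal protein genes), the averaging (mean of single cells), the pseudocount (0.1 UMI), the cells (1000 or more genes, at most 10% mitochondrial UMIs, the deepest 5% removed, WT limited to cells that had Xist and lacked Y-linked UMIs), the depth (1000 UMIs per cell, and 500 for shares), free RNA (subtracted), the fold limits and the count minimums.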

Additional observations from a re-analysis of the deposited data

Results flagged for a closer look

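Guca1a and Rcvrn were singled out because their rod and cone levels differed from WT in opposite directions, each beyond counting error, in both rd10 libraries. The log2 change over WT in cones minus that in rods was -0.36 (-0.44 to -0.29) in rd10-vehicle and -0.38 (-0.45 to -0.32) in rd10-TMB for Guca1a. For Rcvrn it was -0.49 (-0.57 to -0.41) and -0.54 (-0.62 to -0.46). With 1 library per group the difference was not tested, and both comparisons share the WT library. Glial transcripts were higher in both classes of both rd10 libraries and cone markers in their rods, and the part of neither was tested. Among cells with at least 1000 genes the rod ratio of Guca1a in rd10-vehicle turned to -0.12. The rod ratios of Rcvrn fell to 0.05 and 0.06, below their main intervals, and whether they are beyond counting error was not computed.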

How the results depend on the processing

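Of 688 values of single genes recomputed, 604 stayed within the counting interval of the value reported and 84 lay outside it. The sign changed in 19, of which 17 had an interval that held 0 (13 for rd10-TMB over rd10-vehicle and 4 for Slc24a2 over WT). The other 2 were Guca1a in rods for rd10-vehicle over WT, -0.12 among cells with at least 1000 genes, and Gucy2e in WT cones over rods, 0.15 with cells thinned to 1000 UMIs. The medians over the members have no interval of their own, so they were set against the mean counting bounds of the middle gene or genes. Of 86 medians, 82 stayed within those bounds, and 2, both for rd10-TMB over rd10-vehicle, changed sign. The median for cones over rods in rd10-TMB, -0.83, became -0.72 with the mean over cells, -0.96 among cells with at least 1000 genes and -0.70 with thinning, and the median for rd10-TMB over rd10-vehicle in rods, -0.03, became -0.11 with thinning. With a 2-fold limit, or with at least 200 UMIs, the members past the limit in cones over WT went from 2 to 1 in rd10-vehicle and from 2 to 1 in rd10-TMB. Guca1b in cones for rd10-TMB over WT was -1.05 with thinning, against -2.02. No paired analysis was possible because each group is 1 library. With 1 pooled library per group, no value tells genotype, sex, batch or treatment from the library itself. Depth limits Gucy2f in cones and Slc24a2 in rods, with at most 13 UMIs per library. Intervals cover counting error only.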
